A study of Homo sapiens with 16 samples.

Results

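The 10 genes described here carry out peptide presentation by major histocompatibility complex (MHC) class I: H2-K1, H2-D1, B2m, Tap1, Tap2, Tapbp, Nlrc5, Psmb8, Psmb9 and Erap1. They were chosen by name, as the core of the pathway, with earlier results of these data known, from 32285 genes in the count tables. All 10 were found there. Class I molecules display fragments of a cell's own proteins to CD8 T cells, and nearly every nucleated cell carries them. A heavy chain (H2-K1, H2-D1) pairs with beta-2 microglobulin (B2m). Peptides are cut by the proteasome, whose interferon-inducible immunoproteasome subunits include Psmb8 and Psmb9, carried into the endoplasmic reticulum by the transporter Tap1-Tap2, trimmed there by Erap1 and loaded with the help of tapasin (Tapbp). Nlrc5 is a transcriptional activator of this gene group, and interferon gamma raises many of its members. Most members (H2-K1, H2-D1, Tap1, Tap2, Tapbp, Psmb8, Psmb9) lie in the MHC itself, and Tap1 and Psmb9 are neighbors there, while B2m, Nlrc5 and Erap1 lie outside it.

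The tumors were LPA1-T22 (T22), sensitive to PARP inhibitors, and LPA1-T127 (T127), resistant to them, both derived from mice carrying an LPA1 receptor transgene in the mammary epithelium, both described as BRCA1/2 wild type, and transplanted into the mammary fat pads of female FVB mice bought at 6 weeks of age. Long-term pools held T22 and T127 tumors, grown alone or opposite each other in 1 mouse, after 20 days of olaparib, a PARP inhibitor, at 50 mg/kg daily or of vehicle (8 pools). Short-term pools held tumors of 1 model after 4 or 8 days of olaparib at that dose or of vehicle (4 pools of T22, 4 of T127). Tumors in a pool were marked with hashtags before capture and mixed. The methods name antibody hashtags and also multiplexing oligos, and the labels multiplexing oligos. Some antibody hashtags bind class I complexes, and whether cells with little class I were assigned or kept less often was not tested. Which tumor a cell came from could not be read from the files analysed here, so olaparib was not compared with vehicle, no test was run between conditions, and every range below is over pools, which hold cells of several tumors. The labels do not say whether pools hold the same or different tumors, so a range over pools does not measure the spread between tumors. Short-term, model and pool cannot be told apart. Long-term, both models were captured in the same pools.

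A level is the unique molecular identifiers (UMIs, counted mRNA molecules) of a gene summed over the cells of a deposited label, divided by all UMIs of those cells and scaled to counts per 1000000 (CPM). Total depth was 34755906 to 55600377 UMIs per pool. Long-term pools 1, 2 and 3 shared cell barcodes, and of 4146 barcodes seen more than once in the long-term pools, 2774 (66.9%) carried different labels in their copies. Of the 139 with any malignant copy, 30 were malignant in some copies and not in others. Keeping the deepest copy left 25723 long-term cells of 30845. Short-term pools held 15094 T22 and 8007 T127 cells. The deposited malignant labels are Malign_0 and Malign_1, assigned to T127, and Malign_2 and Malign_3, assigned to T22. Long-term they held 2809, 1794, 1352 and 907 cells, with 93 to 419 cells of a label in a pool. Short-term there were 2515 Malign_0, 2363 Malign_1, 1736 Malign_2 and 218 Malign_3 cells. Epithelial markers were present in all 4 labels, but not the same ones. Krt8 was at 735 and 480.2 CPM in long-term Malign_0 and Malign_1, and at 229 and 1999.8 CPM in Malign_2 and Malign_3. Epcam, at 922 CPM in Malign_2 and 2779.7 CPM in Malign_3, was at 3.30 and 5.87 CPM in the T127 labels, and Cdh1 was at 0.560 and 0.709 CPM there. Krt18 was at 597 and 499 CPM in the T127 labels and 3022 CPM in Malign_3, where Cdh1 was at 113 CPM. Krt5 and Krt14 were highest in Malign_2 among the long-term labels, at 916 and 1734 CPM. Malignant cells were called from copy number by the authors, and in the T127 labels Epcam and Cdh1 were near 0. Pdgfra, a fibroblast marker, was at 155 and 118 CPM in them, whereas Col1a1 was at 3.92 and 6.53 CPM, Col1a2 at 6.03 and 7.06 CPM and Pdgfrb at 3.72 and 3.49 CPM. In the fibroblast label i_CAF these 4 genes were at 323, 5517, 8913 and 101 CPM, in that order.

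Most members were at lower levels in the T127 than in the T22 malignant labels in both experiments. A gene was called when both T22 labels were at least 2-fold above both T127 labels with no overlap between the pools of any pair, among genes at 5 CPM or more in at least 1 of the labels. Long-term, 7 of the 10 members were called higher in T22 (H2-K1, Tap1, Tap2, Tapbp, Psmb8, Psmb9, Erap1), H2-D1 and B2m did not reach 2-fold in Malign_3, and Nlrc5 was under 5 CPM in all 4 labels. Of 10464 genes tested, 12.0% were called higher in T22 and 12.5% lower. No member was called lower in T22. Short-term the same 7 members were called higher in T22 and none lower, against 15.3% and 14.8% of 11160 genes. The median log2 difference of the 9 members tested, T22 minus T127 labels with 1 CPM added, was 2.06 long-term and 2.25 short-term. Over all genes tested it was 0.02 and -0.02. These medians describe genes that were chosen as a pathway and share regulators, so they are not 9 separate observations. The choice was made with earlier results of these data known, so the counts and medians against all genes are not an independent comparison.

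**Figure D1:**
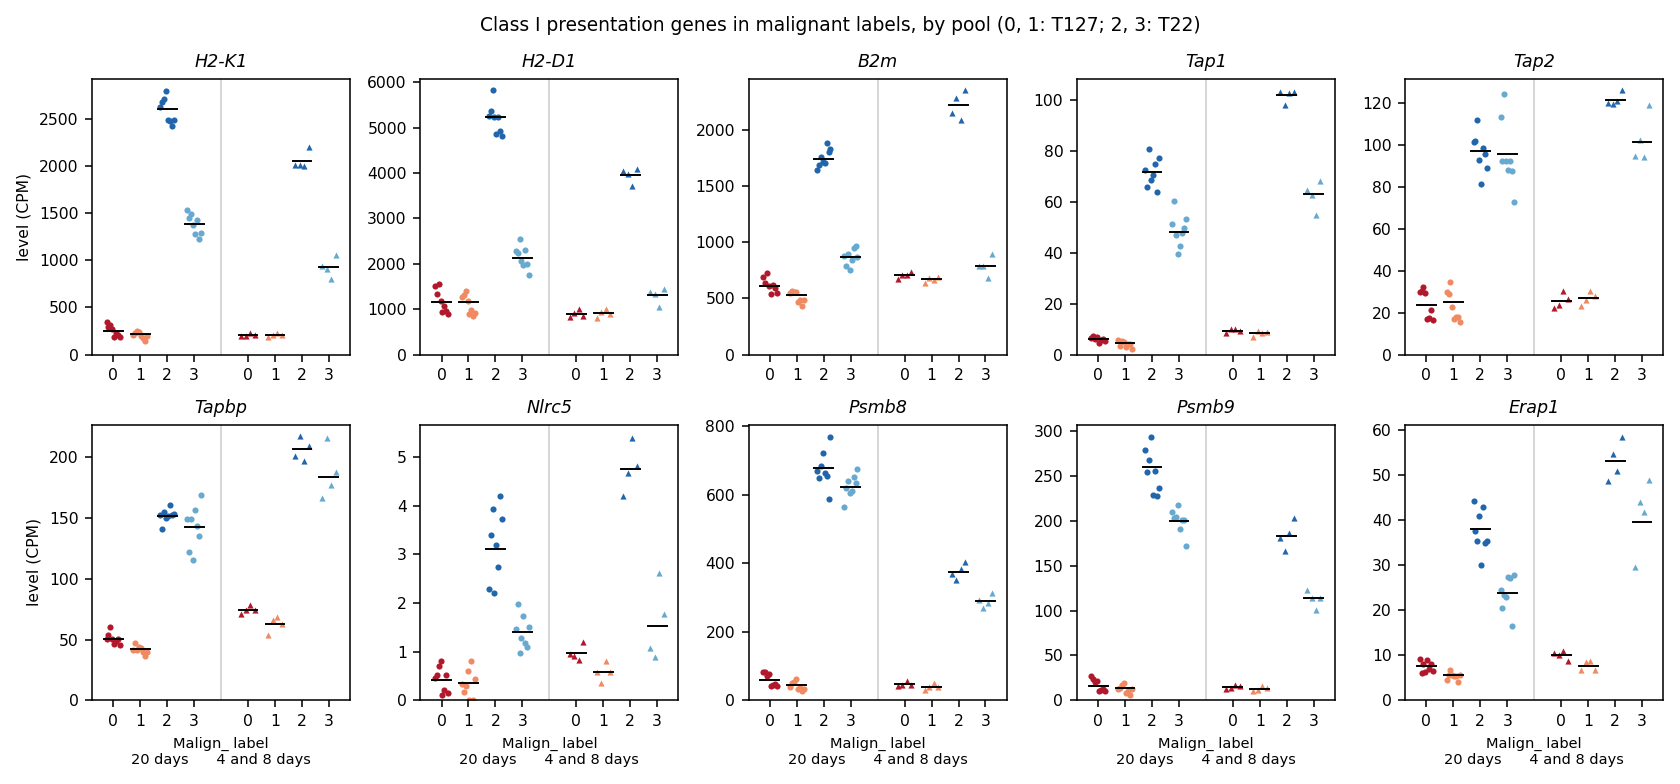
Level of each of the 10 genes in the 4 malignant labels, in CPM (vertical axis, from 0, a separate scale for each gene). Circles are the 8 long-term pools, triangles the 4 short-term pools of each model, and black lines the level over all pools. For H2-K1, Tap1, Psmb8 and Psmb9 the T127 labels (red, orange) lie near the bottom of the scale in both experiments, while for B2m Malign_3 (light blue) lies close to them.

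The heavy chain gene H2-K1 ranged over the 8 long-term pools from 183 to 343 CPM (median 254) in Malign_0 and from 142 to 250.3 CPM (median 203) in Malign_1. In Malign_2 it ranged from 2428 to 2792 CPM (median 2559) and in Malign_3 from 1221 to 1536 CPM (median 1402). The lowest T22 pool was thus above the highest T127 pool. Over all pools the level in Malign_2 was 10.6-fold that in Malign_0 (95% counting interval 10.4 to 10.7), 7.65- to 13.6-fold within single pools. Malign_3 was 5.59-fold above Malign_0 (5.47 to 5.71). Short-term, the 4 T127 pools had 193, 194, 225 and 203 CPM in Malign_0 and the 4 T22 pools 2013, 2015, 1997 and 2204 CPM in Malign_2. Malign_3 lay between them at 937, 911, 798 and 1057 CPM.

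The other classical heavy chain gene, H2-D1, differed less. Its long-term pools ranged from 883 to 1552 CPM (median 1122) in Malign_0, from 860.2 to 1395 (median 1077) in Malign_1, from 1751 to 2546 (median 2145) in Malign_3 and from 4813 to 5827 (median 5234) in Malign_2. All T22 pools were above all T127 pools, but Malign_3 was only 1.85-fold above Malign_0 (1.83 to 1.87). Malign_2 was 4.53-fold above it (4.49 to 4.57). Short-term, Malign_3 had 1384.5, 1325, 1048 and 1445 CPM against 837, 917, 1011 and 855 CPM in Malign_0. FVB mice carry another MHC haplotype than the strain of the reference genome, and heavy chain genes and their H2-Q and H2-T relatives are near-identical, so the split of UMIs among these genes is uncertain. H2-K1, H2-D1 and 13 such relatives summed were at 1475 CPM in Malign_0, 1449.5 in Malign_1, 8017 in Malign_2 and 3639 in Malign_3.

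B2m, the chain common to all classical class I molecules, had the lowest ratio of any member in the long-term pools. There it ranged from 534 to 726 CPM (median 611) in Malign_0, 431 to 565 (median 518) in Malign_1, 752 to 969 (median 875) in Malign_3 and 1639 to 1880.5 (median 1733) in Malign_2. Malign_2 was 2.84-fold above Malign_0 (2.80 to 2.88) and Malign_3 1.41-fold (1.38 to 1.44), with no overlap between pools. Short-term, the pools of Malign_3 (785, 786, 681 and 890.2 CPM) overlapped those of Malign_0 (675, 707, 704 and 737 CPM).

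Of the immunoproteasome subunits Psmb9 had the highest ratio of any member in each pair of a T22 and a T127 label, while Psmb8 was below Tap1 in some pairs and above it in others. Psmb9 ranged from 9.95 to 26.8 CPM (median 16.4) in Malign_0 and from 6.26 to 19.6 (median 12.6) in Malign_1, but from 228 to 293 (median 255) in Malign_2 and from 172 to 218 (median 202) in Malign_3. Malign_2 was 15.8-fold above Malign_0 (14.8 to 16.9, counting error) and 18.7-fold above Malign_1 (17.1 to 20.4). Within single pools these ratios ran more widely, from 10.4 to 23.8 and from 15.0 to 36.4. Psmb8 ranged from 41.1 to 83.7 CPM (median 59.7) in Malign_0, 26.8 to 62.2 (median 37.5) in Malign_1, 588 to 767 (median 665) in Malign_2 and 563 to 674 (median 627) in Malign_3. Its level in Malign_3 was 10.5-fold that in Malign_0 (10.2 to 11.0), and 6.72 to 16.4-fold within single pools. Short-term the ratios of Malign_2 over Malign_0 were 12.8 for Psmb9 and 8.05 for Psmb8, and the highest T127 pool of Psmb9 (16.8 CPM) lay under the lowest T22 pool (101 CPM).

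The 2 transporter subunits were unlike each other in size of difference. Tap1 ranged from 4.63 to 7.31 CPM (median 5.99) in long-term Malign_0, 2.16 to 5.80 (median 4.24) in Malign_1, 63.8 to 80.9 (median 71.7) in Malign_2 and 39.4 to 60.6 (median 48.7) in Malign_3. Malign_2 was 12.0-fold above Malign_0 (10.7 to 13.5). Tap2 ranged from 16.5 to 32.1 CPM (median 25.2) in Malign_0, 15.6 to 34.5 (median 20.4) in Malign_1, 81.4 to 112 (median 96.9) in Malign_2 and 72.6 to 124 (median 92.3) in Malign_3, and Malign_2 was 4.14-fold above Malign_0 (3.88 to 4.43). Short-term the ratios of these labels were 10.9 for Tap1 and 4.73 for Tap2.

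Tapbp, which bridges the transporter and the empty class I molecule, ranged from 45.2 to 60.03 CPM (median 50.3) in Malign_0, 36.9 to 47.2 (median 41.2) in Malign_1, 141 to 161 (median 152) in Malign_2 and 116 to 169 (median 146) in Malign_3. Malign_2 was 3.01-fold above Malign_0 (2.86 to 3.16). Erap1, the trimming peptidase, ranged from 6.09 to 9.14 CPM (median 7.45), from 4.17 to 6.81 (median 5.52), from 30.1 to 44.2 (median 36.5) and from 16.6 to 27.7 (median 23.9) in Malign_0 to Malign_3, and Malign_2 was 5.04-fold above Malign_0 (4.50 to 5.65). Nlrc5 was sparse, with 25, 14, 73 and 22 UMIs in long-term Malign_0 to Malign_3. That is 0.412 CPM (95% Poisson interval 0.267 to 0.608) in Malign_0 and 3.10 CPM (2.43 to 3.90) in Malign_2, a ratio of 7.53 (4.73 to 12.4). Its 4 short-term pools of Malign_2 had 4.20 to 5.39 CPM, and those of Malign_3 (0.898 to 2.61 CPM) overlapped those of Malign_0 (0.823 to 1.20 CPM).

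**Figure D2:**
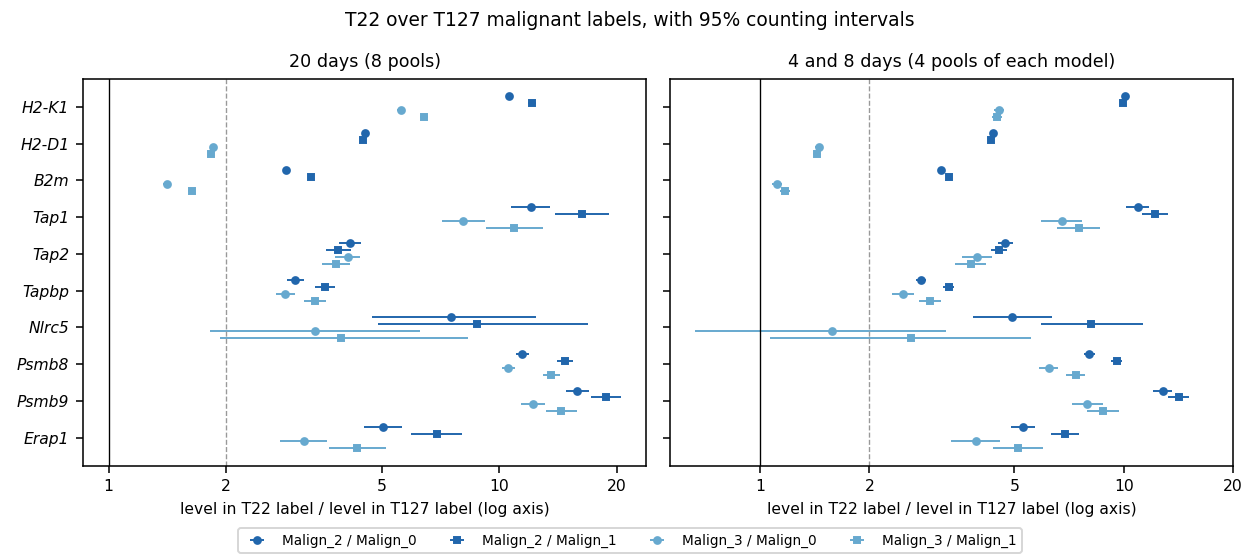
Level in a T22 malignant label over that in a T127 malignant label for each gene (horizontal log axis), long-term on the left and short-term on the right, with 95% intervals that cover counting error only. The dashed line marks 2-fold. Most ratios lie to the right of it, up to 18.7 for Psmb9, while those of H2-D1 and B2m in Malign_3, and short-term of Nlrc5 in Malign_3 over Malign_0, lie to its left.

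Markers of immune cells, which have high class I levels, were measured beside the members. The 10 immune markers Ptprc, Tyrobp, C1qa, C1qb, C1qc, Lyz2, Cd74, H2-Aa, H2-Ab1 and Csf1r, all 10 of them detected in each malignant label, summed to 349.6, 403, 508 and 782 CPM in long-term Malign_0 to Malign_3, which is 0.488%, 0.562%, 0.709% and 1.09% of their level in the macrophage labels of the same pools. In the same labels H2-K1 was at 11.0%, 9.59%, 116% and 61.5% of its macrophage level. The member nearest to the markers was Psmb9 in Malign_1, at 5.32%, where the highest single marker (Cd74) was at 1.03%. Short-term the marker sum was at 0.0789% and 0.0860% of the macrophage level in Malign_0 and Malign_1, and Psmb9 at 5.59% and 5.05%. A Ptprc UMI was seen in 6.30%, 5.52%, 6.36% and 7.83% of long-term Malign_0 to Malign_3 cells. Leaving these cells out kept the count of called members at 7 in both experiments.

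Both subclusters of a model were compared as well. Over all long-term pools the level in Malign_3 was below that in Malign_2 for each of the 10 members, by 1.01-fold (Tap2, with an interval of 0.950 to 1.08 and lower in 5 of 8 pools) to 2.45-fold (H2-D1). H2-D1 and B2m were called lower in Malign_3, against 10.0% of 9602 genes, and none was called higher, against 8.83%. B2m was close to the threshold: its fold was 2.02, and without long-term pool 4 the count was 1. Short-term H2-K1, H2-D1 and B2m were called lower, against 11.8% of 10328 genes, and none higher, against 11.0%. Of the other members, Tap1 in Malign_3 was 0.671 times Malign_2 (0.615 to 0.732) and Psmb9 0.770 times (0.738 to 0.804), both with pools apart and lower in 8 of 8 pools. Pools overlapped for Psmb8, at 0.921 times (0.898 to 0.945), and Tapbp, at 0.942 times (0.893 to 0.993). Short-term, Tap1 was at 0.618 times, Psmb9 at 0.621 times and Psmb8 at 0.772 times, all with pools apart. Between Malign_1 and Malign_0 no member was called in either experiment, where 1.18% of 8799 genes were called higher in Malign_1 and 0.523% lower long-term, and 1.82% and 0.171% of 9361 genes short-term. Erap1 was 0.730 times as high in Malign_1 as in Malign_0 long-term (0.618 to 0.859), lower in 8 of 8 pools, and Tap2 was 1.07 times as high (0.986 to 1.16), higher in 3 of 8 pools.

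The T127 levels moved between sets of pools. In Malign_0 the 4 long-term pools 1 to 4 were all above the 4 pools 5 to 8 for 6 members (H2-K1, H2-D1, Tap1, Tap2, Psmb8, Psmb9), and 13.4% of 8640 genes behaved in that way. In Malign_1 it was 5 members (H2-K1, H2-D1, B2m, Tap2, Psmb8), against 7.63% of 8529 genes. In Malign_2 it was H2-K1 alone, against 9.65%, and in Malign_3 Psmb9 alone, against 7.86%. No member was lower in pools 1 to 4 in any of the labels, where 20.2%, 16.4%, 8.01% and 7.35% of genes were. Psmb9 in Malign_0 was at 20.1 to 26.8 CPM in pools 1 to 4 and 9.95 to 12.8 CPM in pools 5 to 8, and Psmb8 at 71.3 to 83.7 and 41.1 to 48.2 CPM. The immune marker sum in Malign_0 did not separate these pools (297 to 391 and 301 to 394 CPM). This split was seen in the values and is not in the labels, which do not say which tumors a pool holds. The counts of members and the shares of genes therefore only describe the split and are not an independent comparison. Malign_1 held 293 to 360 cells per pool in pools 1 to 4 and 109 to 157 in pools 5 to 8. The long-term pools that shared most cell barcodes with each other all lie among pools 1 to 4. Whether the split follows treatment, cell numbers or shared barcodes was not tested.

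The 21 labels with at least 50 long-term cells allowed the malignant levels to be placed among those of the other cells. The lowest non-malignant label was a fibroblast label for 9 members, i_CAF for 7 and my_CAF for Tapbp and Nlrc5, and CD14-IL1B for Erap1. The highest levels were in T cells, plasmacytoid dendritic cells (pDC) or the label CD14-IL1B. Of the dendritic cell markers Xcr1, Clec9a and Flt3, Xcr1 (186 CPM) and Clec9a (30.7 CPM) were highest in CD14-IL1B. Flt3 was highest in pDC (74.3 CPM). The label CD14-IL1B is therefore not called monocytes here. H2-K1 was at 796 CPM in i_CAF (pools 609 to 1083.5), 2269 CPM in Macro-M2 (1733 to 2696) and 4608 CPM in pDC (3475 to 6610.0). Psmb9 was at 49.8 CPM in i_CAF (38.3 to 70.2), 254 CPM in Macro-M2 (198 to 281) and 654 CPM in CD14-IL1B. Malign_2 therefore lay within the range of non-malignant labels for all 10 members. Both T127 labels were below each of the other 19 labels for 9 of the 10 members, against 3.39% of 13499 genes. The exception was Nlrc5, for which my_CAF had no UMI in any pool. For these 9 members the next label up was 1.25-fold (Tapbp, my_CAF) to 3.99-fold (Tap1, i_CAF) above the higher T127 label, and for B2m it was Malign_3. Neighbors in the order of levels mostly overlapped between pools: for H2-D1, Tap2 and Tapbp no neighboring pair of labels was apart, and for H2-K1 2 pairs were, Malign_3 over i_CAF and i_CAF over Malign_0. For H2-K1, B2m, Psmb8 and Psmb9 every pool of both T127 labels was below every pool of every other label, which held for 7 of 13499 genes (0.0519%). This measure was chosen after the values had been seen.

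**Figure D3:**
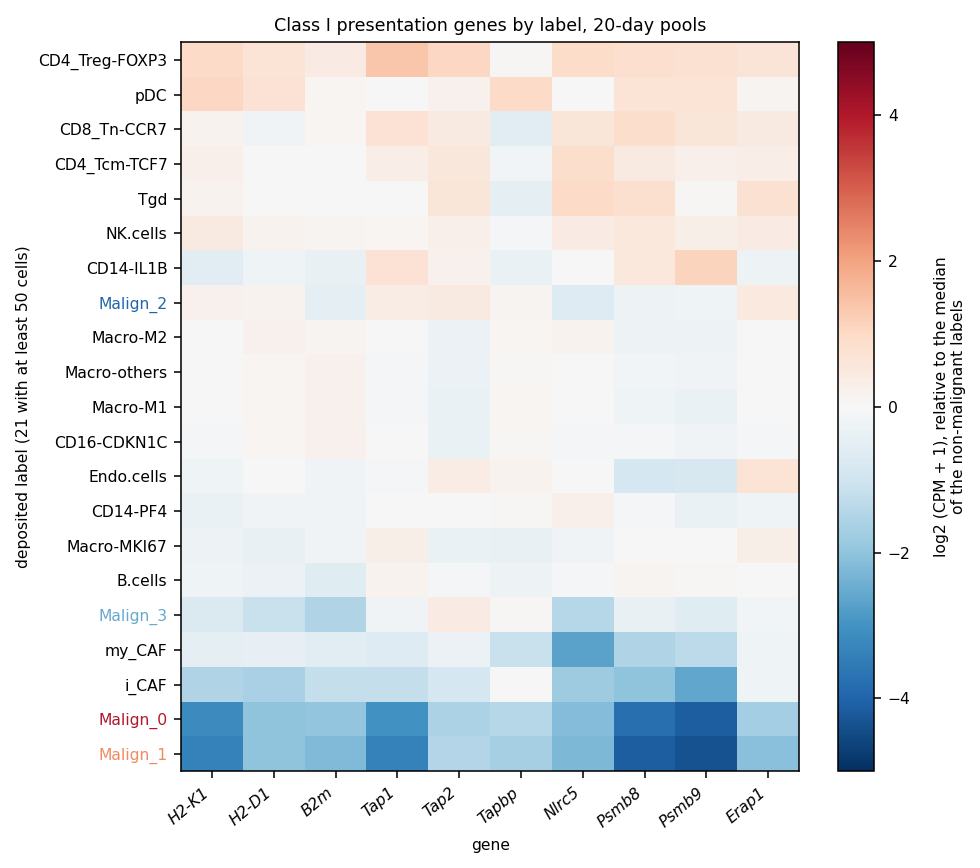
Level of each gene in the 21 labels of the long-term pools, as log2 (CPM + 1) relative to the median of the 17 non-malignant labels (color), with labels sorted by their mean over the 10 genes. Malign_0 and Malign_1 form the bottom rows, under both fibroblast labels, and Malign_2 stands among the immune labels.

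The non-malignant cells of the T127 pools did not have such low levels. In the short-term T127 pools all 10 members were below their level in each of the 12 non-malignant labels in both malignant labels, which held for 5.11% of 13035 genes. For all members but Nlrc5 every pool was apart, against 0.736% of genes. The lowest non-malignant label was 1.71-fold (Tap2, i_CAF) to 4.65-fold (Psmb8, i_CAF) above the higher malignant label. Of 10 non-malignant labels with at least 50 cells in both models, H2-D1 was higher in T127 than in T22 pools in all 10, Psmb8 and Psmb9 in 8, H2-K1, Tap1, Tapbp and Erap1 in 7, Nlrc5 in 6, and B2m and Tap2 in 5. No share over all genes was set beside these counts, which include differences of any size. H2-D1 in CD14-PF4 was at 3712 CPM in T127 and 3708 CPM in T22. Its pools overlapped in CD14-IL1B, CD14-PF4 and Macro-MKI67, and those of Psmb9 were apart only in Macro-others and NK.cells. Over the 10 labels the median ratio of T127 to T22 was between 0.9749 (B2m) and 1.42 (Tap1) for the 10 members, with 1.07 for H2-K1, 1.32 for H2-D1, 0.996 for Tap2 and 1.17 for Psmb9. Of 99 member and label pairs at 5 CPM or more, 2 were called lower in T22 and 0 higher, against 6.09% and 5.72% of 95989 gene and label pairs. The count lower rests on single pools, being 4 without T22 pool 2 or T127 pool 1 and 1 without T22 pool 1 or T127 pool 2, and the count higher was 1 without T22 pool 3. The count lower was 1 with only cells of at least 3000 UMIs, 5 with each cell weighted the same, 16 at 1.5-fold and 0 at 3-fold. The shares over all gene and label pairs given here are for the 2-fold rule with all pools only. The 2 pairs called lower by that rule were Tap1 in CD4_Tcm-TCF7 T cells and Psmb8 in endothelial cells. Tap1 was at 81.7 CPM in T22 (pools 74.0 to 87.5) and 168 CPM in T127 (121 to 254). That T cell label held 2438 cells with a median of 6403 UMIs in T22 and 204 cells with a median of 2803.5 in T127. Psmb8 was at 264 CPM in T22 (197 to 355) and 536 CPM in T127 (439 to 648). In Macro-M2 cells H2-K1 was at 1898.5 CPM in T22 (1867 to 1921) and 1963 CPM in T127 (1845 to 2058). B2m was lower in T127 there, at 4364 CPM in T22 (4237 to 4468) and 3846 CPM in T127 (3735 to 4072). It was also lower in Macro-MKI67, at 3607 CPM in T22 (3500 to 3664) and 2517 CPM in T127 (2350 to 2747). In CD16-CDKN1C, CD4_Tcm-TCF7, Endo.cells and NK.cells B2m was higher in T127, with pools apart in each.

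**Figure D4:**
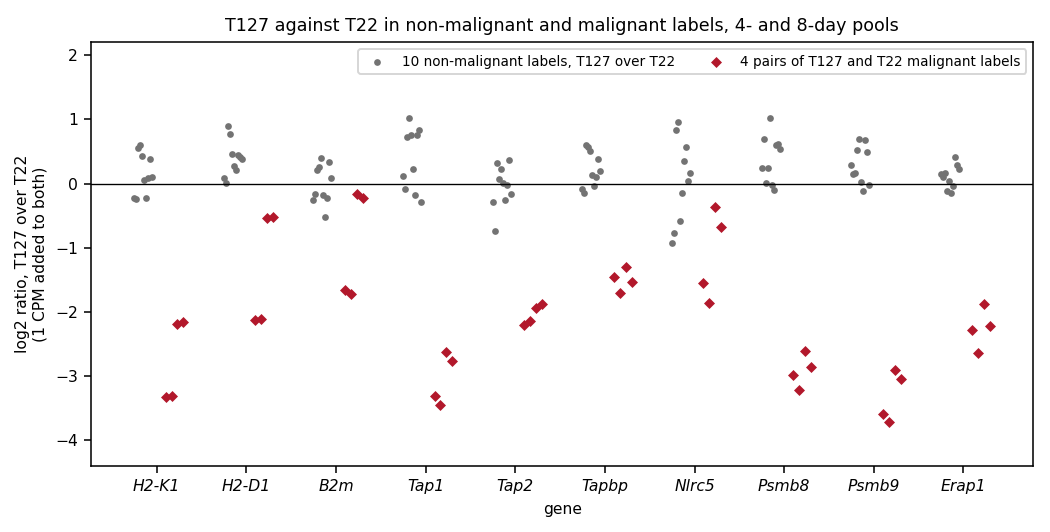
Log2 ratio of the level in T127 over that in T22 short-term pools, with 1 CPM added to both, for each gene. Gray circles are the 10 non-malignant labels, which lie on both sides of 0 for 9 genes and all above it for H2-D1, and red diamonds the 4 pairs of malignant labels, which all lie below 0.

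The share of cells with a UMI was measured as well. For sparse genes this share largely follows from the mean level. It therefore does not show how the difference was spread over cells. Every malignant cell had at least 3000 UMIs and was thinned to that number. A long-term Malign_0 cell then held an H2-K1 UMI in 43.8% of cases (Clopper-Pearson 95% interval 41.9 to 45.6; 89.4% before thinning), a Malign_1 cell in 41.5% (39.2 to 43.8), a Malign_2 cell in 98.8% (98.1 to 99.3) and a Malign_3 cell in 92.8% (91.0 to 94.4). Psmb9 was seen in 4.81%, 3.62%, 50.9% and 41.2% of cells, and Tap1 in 2.28%, 1.39%, 18.8% and 11.9%. For 8 of the 10 members both T22 shares were above both T127 shares long-term with separate intervals. These intervals cover counting over cells only, and no share over all genes was set beside this count. Of the other members, Nlrc5 was seen in 0.0557% to 1.55% of cells. B2m was seen in 78.6% of Malign_3 cells (75.8 to 81.2) and 79.3% of Malign_0 cells (77.8 to 80.8), although its level was higher in Malign_3: 3 or more B2m UMIs were in 39.6% of Malign_3 and 27.6% of Malign_0 cells. Short-term, B2m was in fewer Malign_3 cells (73.9%, 67.5 to 79.6) than Malign_0 cells (83.3%, 81.8 to 84.8). H2-D1 overlapped there, at 90.4% (85.7 to 93.9) and 89.1% (87.9 to 90.3). No label is known to lack these genes, so no background share could be read from one.

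Cells of a malignant label varied by more than counting error in some of the members. In thinned long-term Malign_0 cells the variance of Psmb8 UMIs was 1.84 times their mean, in Malign_1 2.06 times, in Malign_2 1.54 times and in Malign_3 1.63 times, where counting alone gives a ratio near 1. For H2-K1, H2-D1 and B2m the ratio was 2.39, 3.38 and 1.70 in Malign_0, while for the other 6 members it was between 1.00 (Nlrc5) and 1.15 (Tap2). Those 6 averaged only 0.000712 (Nlrc5) to 0.152 (Tapbp) UMIs per cell, and the ratio nears 1 at low means. It therefore does not show which members varied more. Nor can it compare Psmb8 between labels, with means of 0.184 in Malign_0 and 2.05 in Malign_2. The 359 Malign_0 cells with a Psmb8 UMI held 1.79 H2-K1 UMIs on average (pools 1.14 to 2.57), and the 2450 cells without one 0.651 (0.487 to 0.967). For H2-D1 the means were 6.40 (4.19 to 8.00) and 3.37 (2.62 to 4.44). In short-term Malign_0 they were 1.33 (1.06 to 1.57) and 0.534 (0.486 to 0.587) for H2-K1. In the T22 labels cells with a Psmb8 UMI also held more H2-K1 UMIs, on average 8.29 against 6.26 in long-term Malign_2 and 4.26 against 3.26 in Malign_3. The Malign_0 cells with a Psmb8 UMI thus held fewer than Malign_2 cells without one (4.29 to 7.40 over pools). A Ptprc UMI was in 8.08% of the Malign_0 cells with a Psmb8 UMI and in 6.04% of those without. In Malign_1 the shares were 9.52% and 5.10%, in Malign_2 6.36% and 6.35%, and in Malign_3 7.80% and 7.92%. In short-term pools they were 3.52% and 2.73% in Malign_0, 3.37% and 2.65% in Malign_1, 9.21% and 6.15% in Malign_2, and 8.40% and 6.06% in Malign_3. The shares were higher in cells with a Psmb8 UMI in 7 of the 8 label and pool sets. These include long-term Malign_2, where the shares were nearly equal, and short-term Malign_3, where only 16 cells held a Ptprc UMI. The part of immune cells caught in the same droplet was not tested.

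Long-term and short-term levels of a label were set side by side, although experiment, treatment length and transplant setting cannot be told apart. Only the long-term pools held tumors grown opposite each other in 1 mouse. Over all genes the median log2 difference was -0.33 to -0.38, long-term minus short-term, in the 4 labels. Psmb8 was called higher long-term in Malign_3, at 623 CPM (563 to 674) against 290.0 CPM (269 to 314), a ratio of 2.15 (2.04 to 2.27), where 0.905% of 9831 genes were called higher. In Malign_2 Psmb8 was 1.80-fold higher (1.76 to 1.84). No other member was called higher in Malign_3 or in the other labels, where the share was 0.968% for Malign_2, 2.75% for Malign_0 and 2.62% for Malign_1. No member was called lower, where 21.5% of genes were in Malign_0, 21.5% in Malign_1, 14.2% in Malign_2 and 15.0% in Malign_3. That count of 0 was 1 without long-term pool 1, without short-term T127 pool 1 or with no floor, and 3 at 1.5-fold. Within the T127 labels the ratios, long-term over short-term, ran from 0.426 (Nlrc5) to 1.28 (H2-D1) in Malign_0 and from 0.529 (Tap1) to 1.28 (H2-D1) in Malign_1.

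Other genes of the pathway did not all follow. Of the 19 class I relatives found, 8 reached 5 CPM, of which H2-Q4 and H2-Q7 were called higher in T22 and Fcgrt, the neonatal Fc receptor heavy chain, lower, against 12.0% and 12.5% of all genes. In short-term pools 9 were tested, and H2-Q4, H2-Q7, Gm8909 and Mr1 were called higher and Fcgrt lower, against 15.3% and 14.8% of all genes. Mr1, which presents vitamin metabolites, was at 1.76 and 1.63 CPM in short-term Malign_0 and Malign_1 and 18.6 and 4.39 CPM in Malign_2 and Malign_3. Gm8909 was at 1.78 and 2.33 against 8.05 and 7.63 CPM there. H2-Q7 was at 0.774 and 1.27 CPM in long-term Malign_0 and Malign_1 and at 25.9 and 17.1 CPM in Malign_2 and Malign_3. Fcgrt was at 62.0 and 64.3 against 23.6 and 11.2 CPM, and H2-M3, a nonclassical class I gene, was not called, at 29.2, 29.4, 17.1 and 11.5 CPM in Malign_0 to Malign_3. The relative with the highest mean level over the 4 long-term labels was H2-T23, a nonclassical class I gene (62.4, 55.0, 117 and 74.0 CPM), and H2-M5 had no UMI in them. Of 7 other proteasome genes none was called in either set of pools. Psmb10, the third inducible subunit, was at 99.0 and 94.5 CPM in the T127 labels and 64.2 and 64.7 CPM in the T22 labels. The proteasome activator genes Psme1 (255, 192, 338 and 456 CPM) and Psme2 (507, 417, 721 and 870.5 CPM) differed by less than 2-fold between some of these labels, and Psme3 was the lowest of the list (17.3 CPM in Malign_3). Of 6 other loading and trimming genes Erp44 was called higher in T22 in both sets of pools, Lnpep lower in long-term pools only and Calr, a chaperone gene, lower in short-term pools only. Whether the sets of pools differed was not tested. Calr was at 709 and 709 against 411 and 249 CPM long-term and 1319 and 1295 against 634 and 380 CPM short-term. Pdia3 was the highest of these genes and Tapbpl the lowest.

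Of 22 regulators, 20 reached 5 CPM, with 1 called higher in T22 (Rfx5) and 2 lower (Rfxank, Jak1) in long-term pools, against 12.0% and 12.5% of all genes. In short-term pools Rfx5 was called higher and Jak1 lower, of 20, against 15.3% and 14.8%. Jak1 was the highest of the list over the long-term labels and Ciita, the class II transactivator, the lowest. Rfx5, a subunit of the factor that binds MHC promoters, was at 2.50 and 2.18 CPM in long-term Malign_0 and Malign_1 and 7.44 and 7.41 CPM in Malign_2 and Malign_3. Rfxank, another subunit, was at 11.2 and 11.2 against 5.14 and 3.87 CPM. Jak1, a kinase of interferon receptors, was at 165 and 195 against 54.2 and 28.1 CPM. The receptor gene Ifngr1 was at 76.5, 67.5, 28.2 and 43.3 CPM in Malign_0 to Malign_3, and Irf1, a factor that interferon gamma induces, at 9.21, 29.4, 25.8 and 36.5 CPM. Irf1 was called higher in Malign_1 than in Malign_0 in both experiments, where no member was. The share of all genes was 1.18% long-term and 1.82% short-term. Between the T22 labels 3 of 20 regulators were called higher in Malign_3 than in Malign_2, against 8.83% of all genes, and Socs1 lower, against 10.0%. Those 3 were Ifngr2, a chain of the interferon gamma receptor (118 and 42.3 CPM), Rela, a subunit of NF-kB (62.7 and 21.7 CPM), and Ezh2, a histone methyltransferase subunit (90.4 and 33.6 CPM). Socs1, an inhibitor of interferon signaling, was at 10.8 CPM in Malign_3 and 42.7 CPM in Malign_2. The same 3 were called higher in short-term pools, against 11.0% of all genes, and Jak1, Socs1 and Nfkb1 lower, against 11.8%. Of the other lists Mr1, Fcgrt and Lnpep were lower in long-term Malign_3, and short-term H2-Q7, H2-T23, Mr1, Fcgrt and the NKG2D ligand gene H60c were lower and Cd1d1 higher. In Malign_1 against Malign_0 Ulbp1 was called lower in long-term pools, against 0.523% of all genes. Beside Irf1, Socs1 was called higher there in short-term pools, against 1.82%. Between long-term and short-term pools of 1 label, where 14.2% to 21.5% of all genes were called lower long-term, the regulators called lower were 2 of 20 in Malign_0, 3 of 20 in Malign_1, 2 of 20 in Malign_2 and 2 of 19 in Malign_3 (Rfx5, Nfkb1, Rela or Jak2), which is no more than that share. Of the other lists Lnpep, Ulbp1 and H60c were called lower in 1 or more labels, and Psme2 higher in Malign_2 and Malign_3. The interferon genes Ifng and Ifnb1 were under 5 CPM in all malignant labels, and of 5 NKG2D ligands 1 reached 5 CPM long-term (Ulbp1), with no call between models, and Raet1e was the lowest. The median log2 difference, T22 minus T127, was 0.84 for the class I relatives tested, 0.23 for the other loading and trimming genes, 0.51 for the other proteasome genes and -0.20 for the regulators, against 0.02 over all genes.

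**Figure D5:**
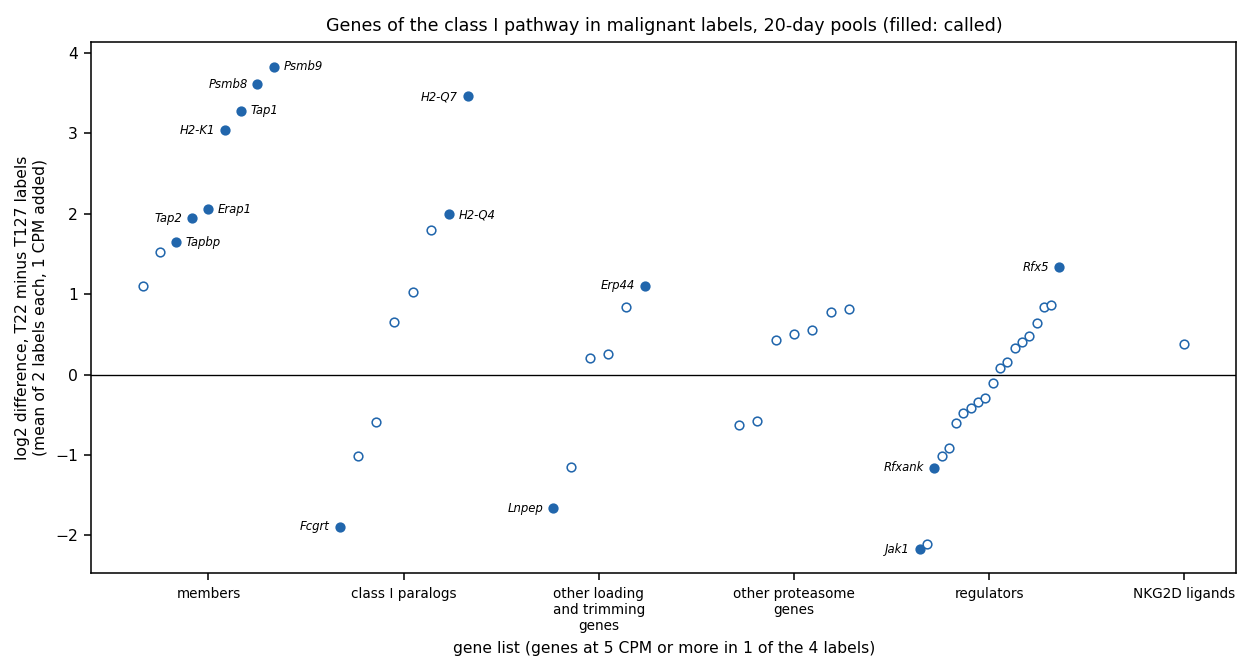
Log2 difference between the T22 and the T127 malignant labels in the long-term pools (mean of the 2 labels of each model, 1 CPM added) for the members and 5 lists of related genes at 5 CPM or more in at least 1 label. Filled points were called by the rule on 2-fold and separate pools, and are named. All 9 tested members lie above 1, while the other proteasome genes and the regulators lie on both sides of 0.

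Across the 21 long-term labels the members varied together. The Pearson correlation of log2 (CPM + 1) over labels was 0.57 to 0.98 for the 45 pairs of members (median 0.85), and over the 17 non-malignant labels alone 0.01 to 0.94 (median 0.64). These are descriptions over labels that share pools. Psmb8 and Psmb9 stayed closely tied among non-malignant labels (0.94), as did H2-K1 and H2-D1 (0.93), whereas Tap1 and Tapbp were not (0.01). Among 9720 genes at 20 CPM or more in some label, those outside the list nearest to the mean of the members were H2-Q7 (r = 0.94), Tle4 (0.92), Plaat3 (0.92), Tsix (0.90) and H2-Q4 (0.90), over 21 labels. H2-Q4 and H2-Q7 are relatives of the heavy chain genes, whose UMIs may be split among them.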

How the data were processed

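Cells of T22 and T127 tumors were captured with the 10x 3′ v3.1 kit in 16 pools. Per the submitters' notes the authors aligned reads with Cell Ranger 6.0.0 to GRCm38. Per the study's methods introns were counted, cells were filtered, doublets were removed and malignant cells were called from copy number. The authors deposited UMI counts of 32285 genes per cell and a cluster name per cell. Both were used. A normalized file of fewer genes was not used. The organism field of the labels says human, while source and build are mouse.

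Computed here: for long-term barcodes seen more than once the deepest copy was kept. Counts were summed per label and pool and divided by the label's total UMIs. Levels, call rules (2-fold, pools apart, 5 CPM) and thinning to 3000 UMIs were set with earlier results of these data known, and so were the members and gene lists, so their choice is not independent of these samples. Named genes are all 10 members, the 5 genes most like their mean, and the list genes that were called or had the highest or lowest level (here the mean over the 4 long-term malignant labels). H2-M3, Psmb10, Psme1 and Ifngr1 were added after their values were seen. Nlrc5 stays under the 5 CPM floor in malignant labels. Intervals (Poisson, Clopper-Pearson, conditional binomial, 95%) cover counting error only, and a UMI count of 0 allows up to 3 counts. No p-value was computed, since pools are no replicates of a treatment. Depth was 34755906 to 44032925 UMIs per long-term pool, 40270841 to 42436039 per short-term T22 pool and 49690430 to 55600377 per short-term T127 pool. Doublets were not called again. Alternatives were other cell filters, denominators, folds, floors and pseudocounts, class I heavy chain genes and their relatives summed, and pools left out. Mouse sequences and gene coordinates were not analysed here. Sums and tables were made in Python 3.11.15 with pandas 2.3.3 and numpy 2.4.6, intervals with scipy 1.17.1 and figures with matplotlib 3.10.9.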

Additional observations from a re-analysis of the deposited data

Results flagged for a closer look

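Of 80 groups of pools (10 genes, 4 malignant labels in 2 experiments) 2 held a pool that stood apart by Dixon's criterion at its 95% critical value, which chance gives in about 1 of 20 groups. H2-K1 in short-term Malign_2 was at 2204 CPM in pool 4 and at 1997 to 2015 CPM in the other 3 pools. Tap1 in short-term Malign_2 was at 98.2 CPM in pool 2 and at 102.8 to 103.3 CPM in the other 3. Both pools lay far above the T127 labels for their gene. No member moved up between short-term and long-term pools in 1 malignant label and down in another with pools apart in both.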

How the results depend on the processing

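The count of members called higher in T22 than in T127 malignant labels was 6 to 8 over 21 alternatives in long-term pools and 6 to 7 over 17 in short-term pools, and no member was called lower in any of them. With 8 of 10 members in long-term pools, the count with separate shares of cells was the same when cells were thinned to 2000 or 5000 UMIs. The count lower in Malign_3 than in Malign_2, 2 in long-term pools, was 1 with mitochondrial and ribosomal protein genes out of the total, 1 with pools 5 to 8 alone, 4 at 1.5-fold, 0 at 3-fold and 1 to 2 with single pools left out. The count higher in long-term than in short-term pools, 1, was 4 at 1.5-fold and 0 at 3-fold. The count lower, 0, was 1 without long-term pools 1, 2 and 3, 1 with pools 5 to 8 alone, 3 at 1.5-fold, 1 with no floor and 0 to 1 with single pools left out (1 without long-term pool 1 and 1 without short-term T127 pool 1). Between models in non-malignant labels the count higher in T22, 0, was 0 to 1 with single pools left out (1 without T22 pool 3). The count lower, 2, was 1 with cells of at least 3000 UMIs only, 5 with each cell weighted the same, 1 with mitochondrial and ribosomal protein genes out of the total, 16 at 1.5-fold, 0 at 3-fold and 1 to 4 with single pools left out (1 without T22 pool 1 or T127 pool 2, 4 without T22 pool 2 or T127 pool 1). The causes were not tested, and no share over all genes was set beside the counts under these alternatives. The comparisons limited to pools 1 to 4 or 5 to 8 were chosen after seeing the data. Of 932 log2 ratios of single members under an alternative 892 moved by less than the spread between pools, and 22 of the 40 others came with a pseudocount of 10 CPM. Summing H2-K1, H2-D1 and their relatives moved 10 of 12 ratios, to a long-term log2 ratio of 2.44 for Malign_2 over Malign_0 (3.39 for H2-K1 and 2.18 for H2-D1 alone) and of 1.30 for Malign_3 over Malign_0 (2.48 and 0.89), so that the sum passed 2-fold where H2-D1 did not. Among 608 ratios of T22 over T127 labels 2 changed sign, both of B2m in short-term Malign_3 over Malign_0, for which the lowest was -0.03 against 0.16. No paired test was made because no comparison came from a test. Labels captured in the same long-term pools were compared within pools, and short-term pool numbers of the models mark separate captures. Depth limits Nlrc5, with 14 to 73 UMIs per long-term malignant label.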
